A study of Homo sapiens with 8 samples.

Results

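The genes described here are those of the desmosome, 10 of the 34415 gene symbols in the count table, taken by symbol: the desmogleins DSG2 and DSG3, the desmocollins DSC2 and DSC3, the armadillo proteins JUP, PKP1, PKP2 and PKP3, the plakin DSP and the membrane protein PERP. All 10 were present and all 10 passed the filter on low counts. Desmosomes are spot junctions that rivet neighbouring epithelial cells together. Desmogleins and desmocollins are cadherins that bind each other across the gap, plakoglobin (JUP) and the plakophilins gather under them in the inner plaque, and desmoplakin (DSP) ties that plaque to the keratin filaments. In epidermis the make-up of the junction changes from the basal to the upper layers, and keratinocytes that migrate into a wound loosen it.

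The cells were HaCaT, keratinocytes from human epidermis that became immortal in culture without a transforming gene, between passages 21 and 33. Every culture, the controls included, spent 96 h in RPMI-1640 medium with 35 mM glucose, raised from a basal 5.5 mM, and 48 h with a transfected small interfering RNA (siRNA). The siRNA targeted ETV4, a transcription factor of the ETS family, in 4 cultures (siETV4) and was the negative control in the other 4 (siNC); the labels call them independent biological replicates. With a single cell line, and with no culture in normal glucose analysed here, the comparison is of siRNAs under high glucose and in this line alone.

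Libraries held 35057643 to 41657753 counts. ETV4 itself fell from 28.2 ± 5.64 to 2.61 ± 0.547 CPM (the count scaled to the library total with TMM factors, 1 CPM being about 40.1 counts; SD, n = 4 each), with edgeR adjusted p 4.64e-05. Keratinocyte markers were well expressed, with KRT5 at 1241 ± 93.7 CPM and SFN at 931 ± 104 CPM in siNC. The 8 markers summed to 4207 to 4621 CPM in siETV4 and 4692 to 5240 CPM in siNC, without overlap. Of single genes, 3.93% were lower without overlap. KRT15, at 336 CPM in siETV4 against 599 CPM in siNC, passed as lower, where 0.118% of all genes did. Of the 8 fold changes 2 were positive and 6 negative. When siNC replicate 4 was left out, ITGA6 passed as higher, where 12.0% of all genes did. The part of this in the desmosome values was not tested. The libraries also differed within each group. Across genes, the deviation of a library from the mean of all 8 followed the GC content of transcripts with Spearman's rho of 0.52 to 0.63 in siNC replicates 1 to 3 and of -0.60 in siNC replicate 4, and with rho of -0.64 to 0.20 in the siETV4 libraries. Fold changes of the desmosome genes are therefore given also without siNC replicate 4, after taking out how each library follows GC content and transcript length (called composition-adjusted here), or with both changes. Leaving that library out does not remove the trend. Over all genes, rho of the fold change with GC content was -0.55 with it and -0.67 without it. In bulk RNA, fewer cells of a kind and less RNA per cell cannot be told apart.

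Per length, plakoglobin was the most abundant desmosome transcript and desmocollin 2 the least. In FPKM (the authors' values, counts over library total and gene length), JUP stood at 261 ± 24.7 (SD over all 8 libraries). The plakophilins PKP3 and PKP1 followed at 143 ± 21.3 and 59.7 ± 7.76 FPKM. PERP, a tetraspan membrane protein of the desmosome and a target of p53 and p63, was at 48.2 ± 5.40 FPKM. The most abundant of the desmosomal cadherins was DSG2 at 44.5 ± 13.5 FPKM, followed by PKP2 at 25.1 ± 4.27, DSP at 21.6 ± 6.002, DSG3 at 15.9 ± 5.98, DSC3 at 9.12 ± 2.85 and DSC2 at 1.95 ± 0.630 FPKM. JUP was above PKP3, PKP3 above PKP1, DSG2 above PKP2, DSG3 above DSC3 and DSC3 above DSC2 in 8 of 8 libraries. Other neighbours in this order crossed: PKP1 exceeded PERP and DSP exceeded DSG3 in 7 libraries, PKP2 exceeded DSP in 6, and PERP exceeded DSG2 in 5.

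**Figure D1:**
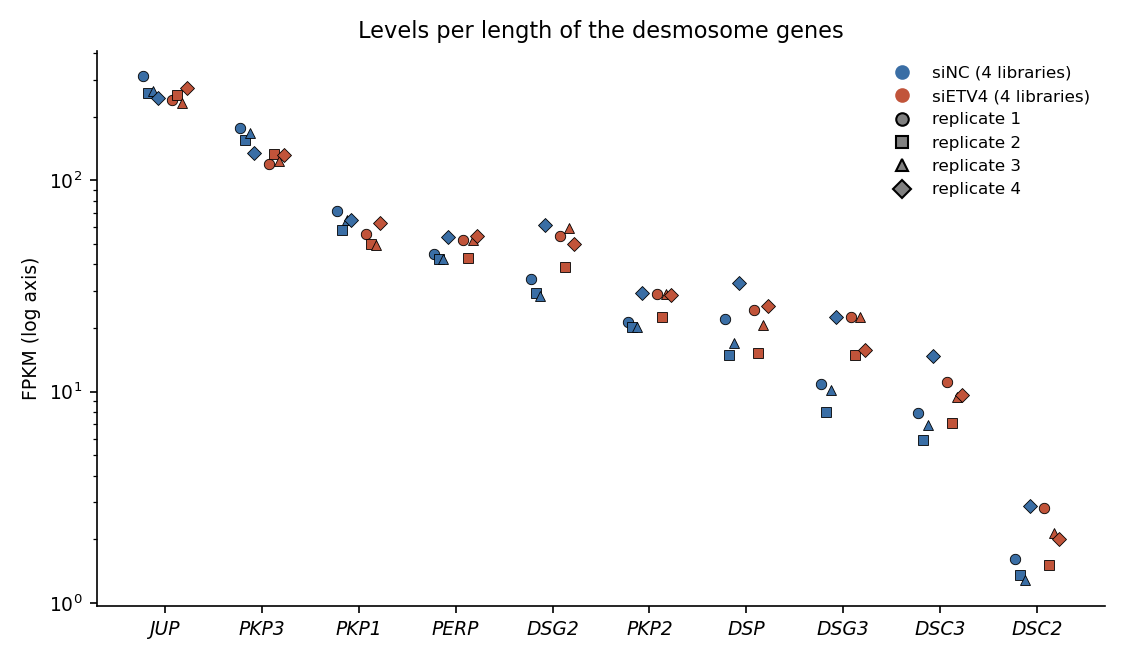
Level of each desmosome gene in FPKM on a log axis, 1 point per library (blue siNC, red siETV4, shape for the replicate number). The genes run from JUP, at 233 to 312 FPKM, down to DSC2, at 1.28 to 2.89 FPKM.

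The comparison asks whether desmosome transcripts differ when ETV4 is silenced in high glucose. No desmosome gene changed past the threshold when all 8 libraries were compared. Of the 10, 0 reached an adjusted p under 0.05 in edgeR's quasi-likelihood test, against 0.236% of the 13572 genes tested (0.118% higher and 0.118% lower), and 2 had an unadjusted p under 0.05, against 12.6% of all genes. DESeq2 and limma-voom also called 0, with 3 at an unadjusted p under 0.05 in each, against 13.6% of all genes in DESeq2 and 13.4% in limma-voom. The log2 fold changes (siETV4 minus siNC) ran from -0.37 for PKP3 to 0.52 for DSG3, 6 positive and 4 negative, with a median of 0.07, beside -0.01 over all genes tested. Summed over the 10 genes, CPM ran from 2579 to 2917 with siETV4 and from 2663 to 3102 with siNC. In none of the 10 did the siETV4 and siNC libraries separate completely, against 2.62% of genes that were higher and 3.93% that were lower in every siETV4 library.

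**Figure D2:**
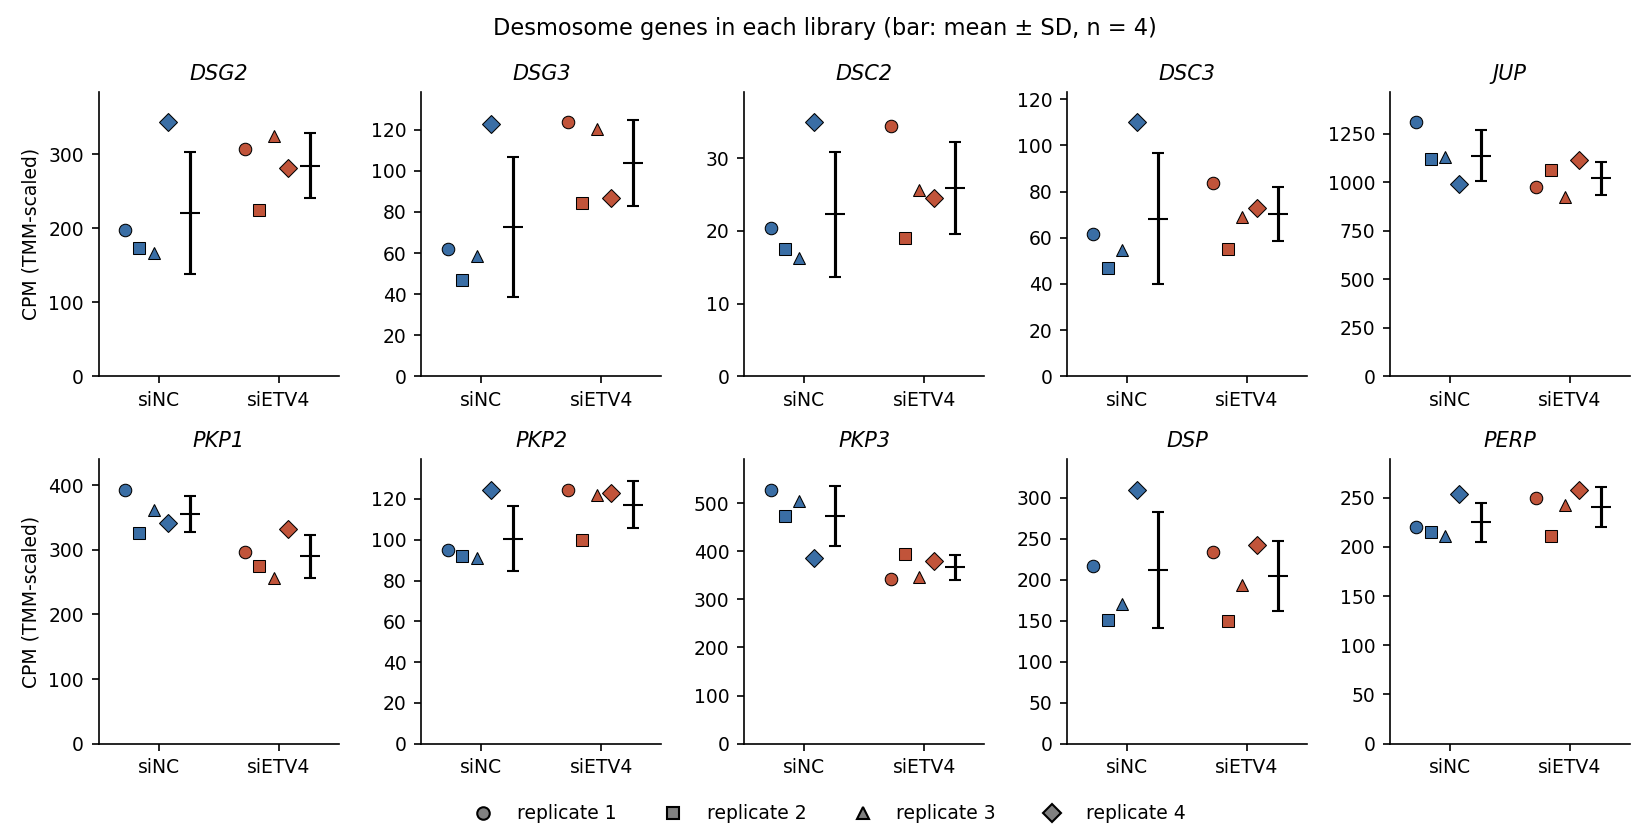
CPM of each desmosome gene in every library, with the mean ± SD of each group of 4 and 1 shape per replicate number. In 7 of the 10 genes siNC replicate 4 (blue diamond) is the highest of the siNC libraries, and in JUP and PKP3 it is the lowest.

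Of the desmosomal cadherins, the desmogleins had the largest differences. DSG2, the desmoglein found in nearly all desmosome-bearing tissues, is at chr18:31498177-31549008 on the plus strand (GRCh38), and DSG3, the desmoglein of basal and lower spinous keratinocytes that pemphigus vulgaris antibodies recognise, lies beside it at chr18:31447741-31478702, also on the plus strand. The 250 bases before each start site, from RefSeq (GRCh38.p14), are shown because these neighbours had the highest fold changes of the 10 genes while their upstream sequences differ widely in base composition. PKP1 (chr1:201283506-201332989, plus strand), whose fold change was negative but did not pass, is set beside them. Capitals mark GGAA or, for the other strand, TTCC, the core that ETS factors bind.
DSG2 (chr18:31497927-31498176, plus strand): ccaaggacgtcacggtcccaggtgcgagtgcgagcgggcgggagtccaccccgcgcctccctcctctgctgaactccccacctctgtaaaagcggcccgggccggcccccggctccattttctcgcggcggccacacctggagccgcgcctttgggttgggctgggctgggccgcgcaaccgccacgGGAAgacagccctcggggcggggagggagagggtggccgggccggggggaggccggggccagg
DSG3 (chr18:31447491-31447740, plus strand): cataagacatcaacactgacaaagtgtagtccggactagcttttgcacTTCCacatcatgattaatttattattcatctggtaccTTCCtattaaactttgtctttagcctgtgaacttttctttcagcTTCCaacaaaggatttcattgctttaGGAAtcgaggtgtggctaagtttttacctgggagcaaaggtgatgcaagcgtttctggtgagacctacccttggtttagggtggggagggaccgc
PKP1 (chr1:201283256-201283505, plus strand): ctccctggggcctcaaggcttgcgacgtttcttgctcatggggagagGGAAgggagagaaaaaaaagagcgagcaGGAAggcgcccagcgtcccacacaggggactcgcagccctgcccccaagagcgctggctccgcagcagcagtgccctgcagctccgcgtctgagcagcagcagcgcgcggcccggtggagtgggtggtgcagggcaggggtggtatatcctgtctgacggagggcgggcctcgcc
The DSG2 window is 75.2% G and C with 1 such core, the DSG3 window 42.8% with 4 and the PKP1 window 67.6% with 2. Windows were found for 8 of the 10 genes (10 windows, since JUP and DSC2 have a pair each). None was found for PKP2 or for PKP3, which had the most negative fold change. All 10 held GGAA on some strand, as did 92.7% of the 35116 windows of that length searched. The longer letters AGGAAG, known as the PEA3 element, were in the windows of DSG3 and PKP1 and in 28.7% of all windows. CCGGAAGT, an ETS consensus, was in 0 of the 10 windows and in 3.42% of all. The 3 motifs overlap, since each longer one holds GGAA, both strands were searched, and a match is only a match of letters.

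DSG2 read 306, 225, 325 and 282 CPM in siETV4 replicates 1 to 4 and 198, 174, 167 and 343 CPM in siNC replicates 1 to 4. The siETV4 libraries all lay above siNC replicates 1 to 3, and siNC replicate 4 lay above all of them. Its log2 fold change was 0.37 (SE 0.21, 95% interval -0.10 to 0.83), with edgeR adjusted p 0.486. DSG3 read 124, 84.3, 121 and 86.8 CPM in siETV4 against 61.9, 46.7, 58.7 and 123 CPM in siNC. Again all siETV4 libraries lay above siNC replicates 1 to 3, while siNC replicate 4 lay just under the highest of them. Its log2 fold change was 0.52 (SE 0.26, 95% interval -0.06 to 1.096), with edgeR adjusted p 0.434. The intervals of both genes reach from a slight decrease to an increase of 1.78-fold for DSG2 and 2.14-fold for DSG3.

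Without siNC replicate 4 both desmogleins passed, DSG2 with a log2 fold change of 0.66 (SE 0.12, edgeR adjusted p 0.00774) and DSG3 with 0.90 (SE 0.15, edgeR adjusted p 0.00625), in a comparison that called 16.9% of all genes, 12.0% as higher. Composition-adjusted over all 8 libraries, neither passed (DSG2 log2 fold change 0.21, edgeR adjusted p 0.309, and DSG3 0.37, edgeR adjusted p 0.241). With both changes made, both passed again, DSG2 at 0.32 (edgeR adjusted p 0.0165) and DSG3 at 0.56 (edgeR adjusted p 0.00638), where 3.00% of all genes were called higher.

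The desmocollins, which pair with the desmogleins in the junction, did not pass in any of these fits. DSC3, the main desmocollin of basal keratinocytes (chr18:30989365-31042742, minus strand), read 83.6, 55.2, 69.2 and 72.7 CPM in siETV4 and 61.6, 46.9, 54.7 and 109.9 CPM in siNC. DSC2, the widely expressed desmocollin (chr18:31058840-31102421, minus strand), read 34.4, 19.0, 25.6 and 24.6 CPM in siETV4 and 20.4, 17.5, 16.3 and 35.0 CPM in siNC. In both genes the groups overlapped even without siNC replicate 4. The log2 fold change was 0.04 (SE 0.24, 95% interval -0.48 to 0.56) for DSC3 and 0.22 (SE 0.25, 95% interval -0.33 to 0.76) for DSC2, with edgeR adjusted p 0.949 and 0.716. With siNC replicate 4 left out these were 0.37 and 0.52 (edgeR adjusted p 0.0750 and 0.0556), and with both changes they stood at -0.03 and 0.10 (edgeR adjusted p 0.873 and 0.607).

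The desmosomal cadherins sit in 1 cluster on chromosome 18, whose other cadherin genes had hardly any counts. Of the 9 genes listed there, neighbours included, 5 were tested and 0 passed. DSG1 and DSC1, the cadherins of the upper epidermal layers, were listed at 0 in all 8 libraries, and DSG4, a desmoglein of hair and upper epidermis, at 0 to 9 counts. A listed 0 is not read here as absence, since the translation factor gene EIF4A1, which every cell uses, was also listed at 0 in all 8 (EIF4A1, DSG1 and DSC1 were each at 0 of 320667639 counts, which allows up to 0.00936 CPM by counting error alone). Of the genes next to the cluster, TTR had 0 to 14 counts, and B4GALT6, a lactosylceramide synthase gene, had 1.71 ± 0.703 CPM with siETV4 against 1.15 ± 0.834 CPM with siNC (log2 fold change 0.57, edgeR adjusted p 0.608). Leaving siNC replicate 4 out, B4GALT6 passed, higher (1.22, edgeR adjusted p 0.0485), where 12.0% of all genes were called higher. It did not pass composition-adjusted or with both changes. The antisense symbols that overlap DSG2 and DSC2 held at most 4 and 1 counts in a library.

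Plakoglobin (JUP; chr17:41754609-41786711, minus strand), which also serves adherens junctions, read 975, 1065, 925 and 1116 CPM in siETV4 and 1309, 1119, 1129 and 993 CPM in siNC. The siETV4 libraries lay below siNC replicates 1 to 3, and siNC replicate 4 lay among them. The log2 fold change was -0.16 (SE 0.10, 95% interval -0.38 to 0.07), with edgeR adjusted p 0.529. It did not pass without siNC replicate 4 (-0.22, edgeR adjusted p 0.118). Composition-adjusted, it was -0.02 (95% interval -0.13 to 0.10).

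The plakophilins had fold changes of both signs. PKP3, the plakophilin that binds the widest set of desmosomal proteins (chr11:392596-404908, plus strand), read 343, 395, 347 and 380.0 CPM in siETV4 and 528, 474, 505 and 386 CPM in siNC, so that siNC replicate 4 was the single control within the siETV4 range. PKP3 had the smallest p of the 10 genes, with a log2 fold change of -0.37 (SE 0.11, 95% interval -0.60 to -0.14) and edgeR adjusted p 0.240. Its unadjusted p was 0.00501. Without siNC replicate 4 it passed (-0.46, SE 0.08, edgeR adjusted p 0.00882), where 4.88% of all genes were called lower. The composition-adjusted log2 fold change was -0.19 (SE 0.05, edgeR adjusted p 0.0581). With both changes it was -0.19 (edgeR adjusted p 0.0404), where 3.50% of genes were called lower.

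PKP1, the plakophilin of stratified epithelia, whose loss causes skin fragility, read 296, 274, 256 and 332 CPM in siETV4 and 392.5, 327, 361 and 342 CPM in siNC. The groups overlapped by 1 library on each side, siETV4 replicate 4 and siNC replicate 2. The log2 fold change was -0.30 (SE 0.10, 95% interval -0.52 to -0.08), with edgeR adjusted p 0.301. It passed with siNC replicate 4 left out (-0.31, edgeR adjusted p 0.0480), but not once composition-adjusted as well (-0.16, edgeR adjusted p 0.213).

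PKP2, the plakophilin of simple epithelia and heart (chr12:32790755-32896777, minus strand), went the other way, at 124, 99.9, 122 and 123 CPM in siETV4 and 94.8, 92.1, 91.0 and 124 CPM in siNC. Here siNC replicate 4 was level with the highest siETV4 library, and the other siNC libraries were below all 4. The log2 fold change was 0.22 (SE 0.12, 95% interval -0.04 to 0.49), with edgeR adjusted p 0.465. Without siNC replicate 4 PKP2 passed (0.34, SE 0.09, edgeR adjusted p 0.0305), and with both changes it did not (0.23, edgeR adjusted p 0.0607).

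Desmoplakin (DSP; chr6:7541671-7586714, plus strand), the link from the plaque to keratin, read 233, 149.9, 193 and 242 CPM in siETV4 and 217, 151, 170.4 and 309.6 CPM in siNC. The lowest and the highest library were in different groups, and the ranges overlapped almost throughout. The log2 fold change was -0.05 (SE 0.22, 95% interval -0.52 to 0.42; edgeR adjusted p 0.928), and 0.19 without siNC replicate 4 (edgeR adjusted p 0.402). Composition-adjusted, it was -0.03 (edgeR adjusted p 0.954), and with both changes 0.15 (edgeR adjusted p 0.462).

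PERP (chr6:138088505-138107419, minus strand) had the smallest spread within the groups, with a within-group SD of 0.12 on the log2 CPM scale beside 0.47 for DSG3 and a median of 0.23 over all tested genes. It read 249, 211, 242 and 258 CPM in siETV4 and 220.0, 215, 211 and 254 CPM in siNC, and the groups overlapped. The log2 fold change was 0.09 (SE 0.09, 95% interval -0.11 to 0.30; edgeR adjusted p 0.677). Its sign turned in the composition-adjusted comparison, to -0.13 (edgeR adjusted p 0.519).

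**Figure D3:**
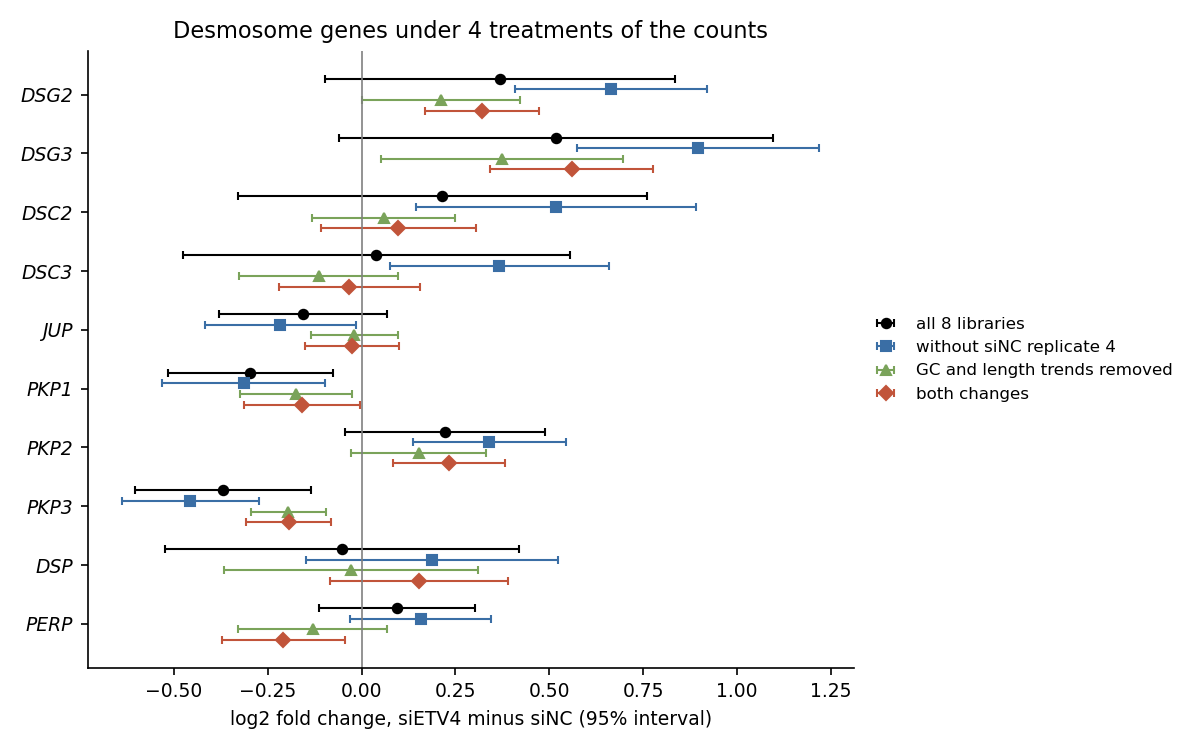
Log2 fold change (siETV4 minus siNC) of each desmosome gene with its 95% interval, from edgeR, for all 8 libraries, without siNC replicate 4, composition-adjusted, and with both changes. DSG2, DSG3, DSC2 and PKP2 are positive and JUP, PKP1 and PKP3 negative in all 4, while DSP, DSC3 and PERP change sign.

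Over the 10 genes, the count of calls depended on siNC replicate 4. That library held 2.20 times the mean of the other siNC libraries for DSG3, 2.02 times for DSC3, 1.93 times for DSC2 and 1.91 times for DSG2, but 0.838 times for JUP and 0.768 times for PKP3, so the cadherins stood high in it and JUP and PKP3 low. Without it 5 passed, DSG2, DSG3 and PKP2 higher and PKP1 and PKP3 lower, against 16.9% of all genes. In that comparison 3 genes (DSG2, DSG3 and PKP2) had every siETV4 library above, and 2 (JUP and PKP3) below, the 3 remaining siNC libraries, against 15.8% and 12.9% of all genes. Composition-adjusted over all 8 libraries, 0 of the 10 passed in edgeR, against 1.75% of all genes (0.870% higher and 0.878% lower), with 4 at an unadjusted p under 0.05, against 16.0% of all genes. With both changes 3 passed (DSG2 and DSG3 higher, PKP3 lower), against 6.50%. When any other single library was left out, 0 passed.

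The fold changes ran with the base composition of the transcripts, as they did over all genes (Spearman's rho -0.55). The genes with the most negative fold changes, JUP, PKP1 and PKP3, have transcripts of 61.5%, 56.4% and 66.7% G and C. The other 7 lie between 38.9% (DSC2) and 47.9% (DSP), below the median of 48.4% for tested genes. Over all genes the median log2 fold change was 0.17 for transcripts of 40 to 45% G and C and -0.17 for those of 65 to 70%. Against genes of their own class of GC content, DSG2, DSG3 and PKP2 stood above the upper quartile, by 0.20, 0.35 and 0.22 over the class median. DSC3, PKP1 and PKP3 stood below the lower quartile, by -0.16, -0.17 and -0.20 from the class median. DSC2, PERP, DSP and JUP were between the quartiles of their classes. The part of GC content in these differences was not tested beyond the composition-adjusted values above.

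**Figure D4:**
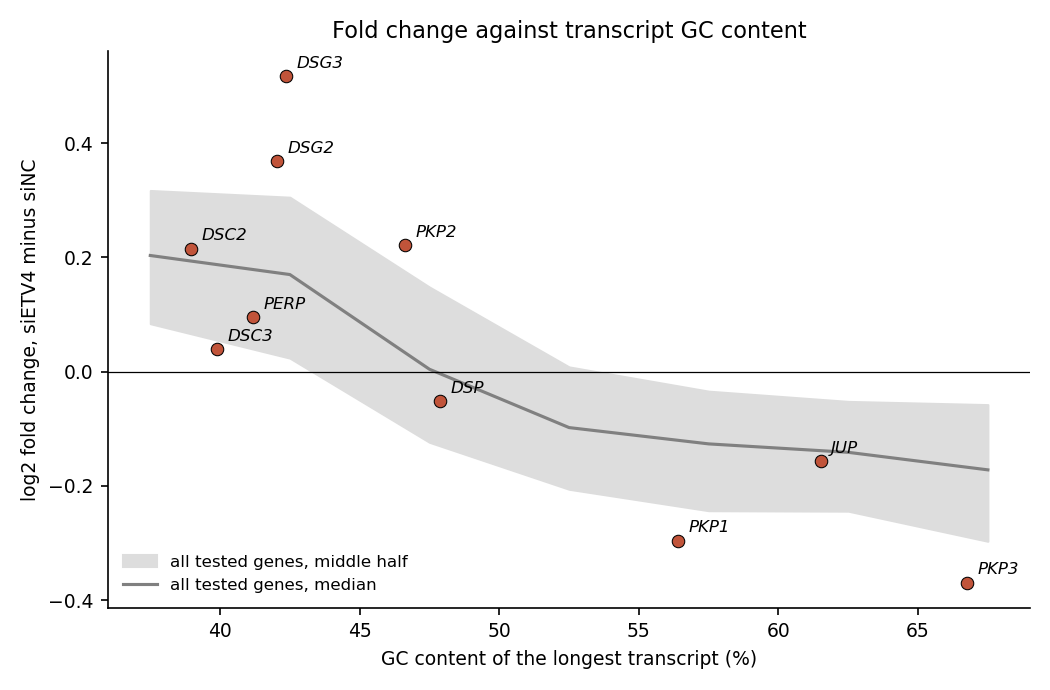
Log2 fold change (siETV4 minus siNC, all 8 libraries) against the GC content of the longest transcript. The grey line and band are the median and the span from lower to upper quartile of all tested genes in classes of 5 percentage points; DSG3 at 0.52 and DSG2 at 0.37 are above the band and PKP3 at -0.37 is below it.

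The mix of related genes was compared by ratios within each library, which no library scaling can shift. DSG2 made up 72.9 ± 2.22% of desmoglein FPKM in siETV4 and 75.2 ± 2.43% in siNC (DSG2 and DSG3 together; SD, n = 4 each). DSC3 made up 81.7 ± 1.35% and 83.1 ± 1.34% of desmocollin FPKM. In both mixes the groups overlapped. The log2 ratio of DSG2 to DSG3 differed by -0.18 between the groups (two-sided exact permutation p = 0.2) and that of DSC2 to DSC3 by 0.15 (exact permutation p = 0.171). Adjusted over the 4 ratios compared, both had an exact permutation p = 0.267, and the smallest p this design of 4 against 4 allows is 0.0286.

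The plakophilin mix had the largest of the 4 differences. PKP2 took 14.2, 10.98, 14.4 and 12.9% of plakophilin FPKM in siETV4 and 7.91, 8.66, 8.02 and 12.8% in siNC. The siETV4 libraries all exceeded siNC replicates 1 to 3, and siNC replicate 4 fell within their range. The log2 ratio of PKP2 to PKP3 was 0.59 higher in siETV4, at -2.22 ± 0.23 against -2.81 ± 0.41 (SD, n = 4 each; exact permutation p = 0.0571, adjusted p = 0.229). Composition-adjusted, the ratio was taken from log2 CPM, not FPKM, so its levels are on another scale than those above. On that scale the difference was 0.35 (exact permutation p = 0.0286, adjusted p = 0.114). There siNC replicate 4, at -1.892, lay just under the lowest siETV4 library, at -1.890. Without siNC replicate 4 the difference in FPKM ratio was 0.79, with the same exact permutation p of 0.0286 and adjusted p of 0.114. Those are the smallest values this design gives a single ratio out of 4, so none could pass alone. PKP1 to PKP3 differed by 0.06 (exact permutation p = 0.714).

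**Figure D5:**
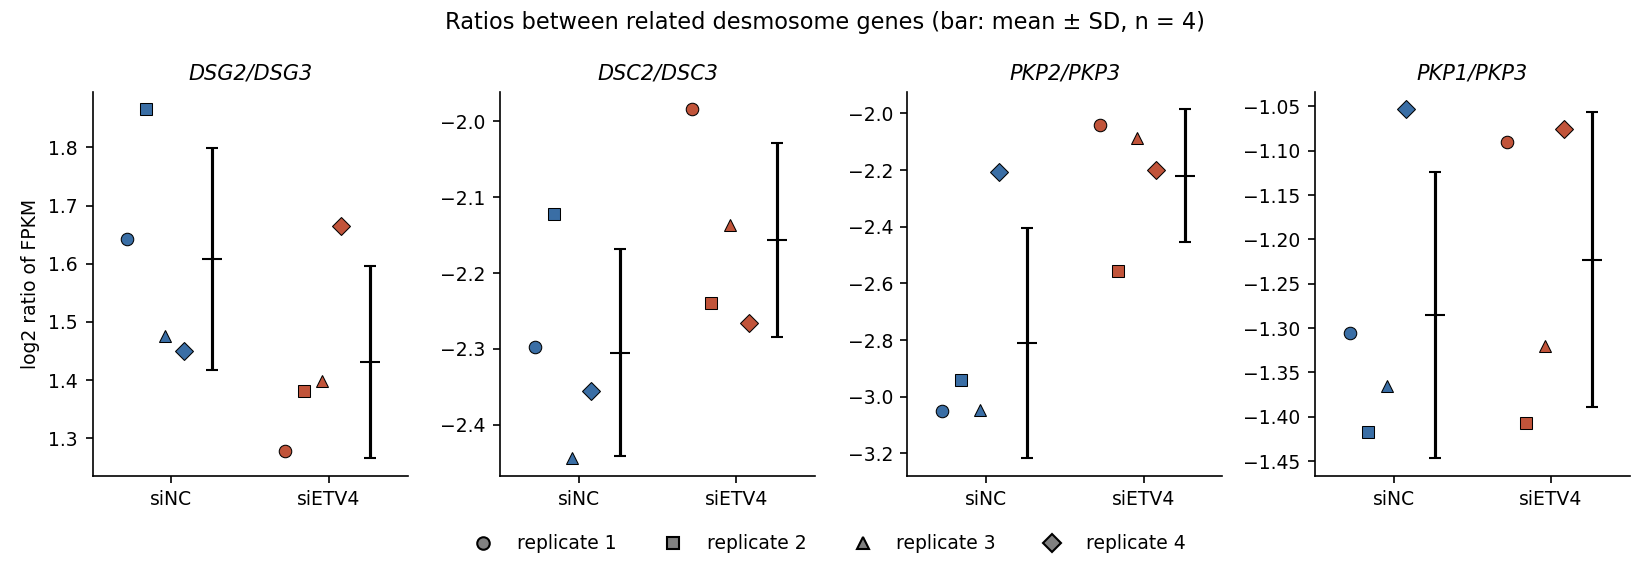
Log2 ratio of FPKM between related desmosome genes in each library, with the mean ± SD of each group of 4. In PKP2/PKP3 the siETV4 libraries lie between -2.56 and -2.04, and siNC replicate 4, at -2.21, lies among them while the other siNC libraries are at -2.94 or below.

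Split by the GC content of their transcripts, the desmosome genes made 2 sets that differed in how they varied over the 8 libraries. This is described after the values were seen and with no test. Among the 7 genes with transcripts below the median GC content, Pearson's r of log2 CPM was positive in all 21 pairs, from 0.63 to 0.97 with a median of 0.88. Among JUP, PKP1 and PKP3 it was 0.77 to 0.86. Between the sets it ran from -0.89 to 0.27, with PKP2 and PKP3, paralogues of the same plaque, at the lower end. With the group means subtracted, r was 0.87 for JUP with PKP3, 0.71 for JUP with PKP1 and 0.40 for PKP1 with PKP3. It was also 0.40 for PKP1 with DSP, a gene of the other set. Composition-adjusted, the sets did not hold in this form. Among the 7 genes r then ran from -0.86 to 0.95 with a median of 0.52. Among JUP, PKP1 and PKP3 it ran from 0.02 to 0.72 with a median of 0.58, and between the sets from -0.56 to 0.78 with a median of 0.19. All points share the 8 libraries.

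DSP, the plakin of the plaque, was not most like another desmosome gene. The 5 genes of at least 10 mean CPM whose log2 CPM followed it most closely over the 8 libraries were NSD1 and CCDC6 (Pearson's r 0.99 each), ASH1L (0.99), FCHSD2 (0.98) and MACF1 (0.98), among 8761 genes. Their counted lengths run from 5209 to 30026 bases and their GC content from 42.5% to 47.2%, beside 9697 bases and 47.9% for DSP. Of the desmosome genes DSC3 was the closest (r 0.93), at rank 87, and JUP (r -0.20) and PKP3 (r -0.36) were the farthest.

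Other genes of the junction and its anchors were compared in the same way over all 8 libraries, where 0.236% of all genes were called. Of 10 further desmosome-associated genes, 6 were tested and 0 passed, with a median log2 fold change of -0.05. The most abundant were PPL, the plakin periplakin, at 216 ± 28.4 against 259 ± 19.3 CPM (log2 fold change -0.26, edgeR adjusted p 0.362), and PKP4, a relative of the plakophilins, with a log2 fold change of -0.0043 (edgeR adjusted p 0.989). Leaving siNC replicate 4 out, the plakin gene EVPL passed, lower (-0.51, edgeR adjusted p 0.0269), where 4.88% of all genes were called lower. EVPL, named after its values were seen, did not pass composition-adjusted (edgeR adjusted p 0.207) or with both changes (edgeR adjusted p 0.0710).

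Of 13 adherens junction genes 0 passed in edgeR, against 0.236% of all genes. Their median log2 fold change was -0.08, with 10 negative. ACTN4, an actin crosslinker, was at -0.11 and CDH3, P-cadherin, at -0.01. NECTIN1, a cell adhesion molecule of adherens junctions named after its values were seen, passed without siNC replicate 4 (-0.44, edgeR adjusted p 0.0185), when composition-adjusted (-0.27, edgeR adjusted p 0.0414) and with both changes (-0.26, edgeR adjusted p 0.0278). With both changes VCL, vinculin, was lower too (-0.39, edgeR adjusted p 0.0180). Of all genes, 4.88% were called lower without siNC replicate 4, 0.878% composition-adjusted and 3.50% with both changes.

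Among 14 keratins that desmosomes can anchor, 12 were tested, and 1 rose and 1 fell, against 0.118% of all genes called in each direction. KRT17, a keratin of wounded epidermis, was at 406 ± 46.1 against 209.9 ± 26.1 CPM, and KRT15, of basal cells, at 336 ± 15.3 against 599 ± 72.8 CPM, both with edgeR adjusted p 0.00636 and with groups that did not overlap. Over all genes 2.62% were higher and 3.93% lower without overlap. KRT17 and KRT15 also passed without siNC replicate 4, composition-adjusted, and with both changes. Without siNC replicate 4 KRT6A, KRT10, KRT13 and KRT18, named after their values were seen, were also lower, where 4.88% of all genes were called lower. With both changes none of these passed (edgeR adjusted p 0.0783, 0.114, 0.350 and 0.238).

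Of 15 regulators of desmosome genes or turnover, 12 were tested and 0 passed in edgeR, against 0.236% of all genes. EGFR, the receptor of epidermal growth factor, had a log2 fold change of 0.04 (edgeR adjusted p 0.930). Without siNC replicate 4 the sheddase gene ADAM17 was higher (0.64, edgeR adjusted p 0.00792), where 12.0% of all genes were called higher. ADAM17 did not pass composition-adjusted or with both changes. With both changes KLF4 was higher (0.57, edgeR adjusted p 0.00756), where 3.00% of all genes were called higher.

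Markers of other cell types were low in both groups. The 7 fibroblast markers summed to 4.16 to 5.34 CPM in siETV4 and 3.42 to 6.44 CPM in siNC, with 2 of them, COL1A2 and LUM, at 0 in every library. Among them DCN, the gene of the matrix protein decorin, had 0.658 ± 0.250 CPM with siETV4 against 0.146 ± 0.0933 CPM with siNC, without overlap (log2 fold change 2.20, edgeR adjusted p 0.203). Of all genes, 2.62% were higher without overlap. DCN passed, higher, without siNC replicate 4 (1.83, edgeR adjusted p 0.0440), where 12.0% of all genes were called higher. It also passed in DESeq2 on all 8 libraries (adjusted p 0.0294), where 120 of 13572 genes were called higher. It did not pass composition-adjusted or with both changes. The 6 melanocyte markers summed to 1.27 to 2.02 and 1.33 to 2.29 CPM, and TYR and MLANA were at 0. The 6 endothelial and blood markers summed to 15.8 to 22.1 and 14.4 to 19.1 CPM, mostly from CDH5, at 18.5 ± 2.65 and 14.8 ± 1.77 CPM, while PTPRC was at 0. CDH5, the cadherin of endothelium, passed as higher with both changes (log2 fold change 0.42, edgeR adjusted p 0.0487), where 3.00% of all genes were called higher. It did not pass over all 8 libraries (0.32, edgeR adjusted p 0.396). DCN and CDH5 calls were looked up after the values were seen. The source of this RNA in cultures of a single line, and its part in the desmosome values, were not tested.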

How the data were processed

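RNA from 8 HaCaT cultures, 4 with siETV4 and 4 with siNC, was sequenced by the authors, who deposited raw counts per gene symbol and FPKM values made from them. The submitters' processing notes name hg38 as genome build, and R 3.2.0. Not given in the sources used here: aligner, counter, annotation, strand setting and siRNA sequences. Reads of a gene and of an antisense partner therefore cannot be told apart. In all 20585 symbols above 0, deposited FPKM equalled the count over library total and 1 fixed length. The groups come from the labels.

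Counts were tested with edgeR 4.0.16 in R 4.3.3 (filterByExpr with a minimum count of 10, TMM scaling, quasi-likelihood test, all 8 libraries, no covariates), with Benjamini-Hochberg adjustment over 13572 genes and a threshold of 0.05. For GC content and length, spline trends (5 degrees of freedom each) per library were taken off as offsets (the composition-adjusted values) over the 12758 tested genes (94.0%) with both values. CPM is the count over the TMM-scaled library total (totals of 35057643 to 41657753 counts), at which 1 CPM is about 40.1 counts. Alternatives were DESeq2 1.42.0, limma-voom (limma 3.58.1), other scalings and filters, log2(FPKM + 1) and log2(FPKM + 0.1) with limma, a replicate block, and each library left out. The fits were tested on simulated data that held no trend with GC content or length and no library like siNC replicate 4. That test therefore cannot say how the fits deal with those features. Ratios of FPKM, or of CPM where composition-adjusted, were compared by two-sided exact permutation tests.

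The 10 members, the gene lists and the alternatives were chosen with earlier results of these data known. All members are named; of other lists, the genes past the threshold are named or, where fewer than 2 passed, the 2 most abundant, except that 1 gene is not reported here. DSP was set beside the 5 genes with the highest Pearson's r among those of at least 10 mean CPM. Promoter sequences are from a RefSeq table of GRCh38.p14, and gene spans are the GRCh38 coordinates of an annotation, not those the authors counted with.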

Additional observations from a re-analysis of the deposited data

Results flagged for a closer look

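Of 28 groups of values checked, 3 held a library far from the others, where chance gives about 1 in 20. In the siETV4 libraries, PKP2 was lowest in replicate 2, at 99.9 CPM against 122 to 124 CPM in the others, a gap of 0.900 of the whole range. In the siNC libraries, PKP2 was highest in replicate 4, at 124 CPM against 91.0 to 94.8 CPM, a gap of 0.887 of the range. The log2 ratio of PKP2 to PKP3 was also highest in siNC replicate 4, at -2.21 against -3.05 to -2.94, a gap of 0.868 of the range. That ratio holds PKP2 of the same library, so its flag is not separate from the one before. The groups of values are thus not independent, and the comparison with 1 in 20 is only rough.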

How the results depend on the processing

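Over all genes, 32 passed with edgeR, 16 higher and 16 lower. The count was 54 with no filter on low counts, 223 with DESeq2, 59 with log2(FPKM + 1) or log2(FPKM + 0.1), 60 at an adjusted p under 0.10, 223 with GC content and length offsets and 838 with those offsets and without siNC replicate 4. With 1 library left out it ran from 9 to 2327, the highest without siNC replicate 4. With library size alone the split was 16 higher and 10 lower. Of the 10 desmosome genes 0 passed, except that 5 passed without siNC replicate 4, the range being 0 to 5 with 1 library left out, and 3 with the offsets as well.

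The labels do not say that replicate numbers pair the samples, and deviations of same-numbered libraries from their group means correlated at -0.08, 0.27, -0.12 and -0.17. Mixed with the GC content trends, these correlations cannot tell whether same-numbered cultures shared a batch. A replicate block called 4 genes, 101 with the offsets, and 0 desmosome genes either way. KRT15 and KRT17 had edgeR adjusted p 0.0683 and 0.0562 with the block alone and passed with block and offsets.

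DSP, DSC3 and PERP changed sign. DSP, at -0.05, was 0.15 with offsets and without siNC replicate 4, 0.021 with log2(FPKM + 1), filtered or not, and 0.023 with log2(FPKM + 0.1); with 1 library left out it ran from -0.18 to 0.19. DSC3, at 0.04, was -0.11 with offsets, with or without the replicate block, and -0.033 without siNC replicate 4 as well; with 1 library left out it ran from -0.10 to 0.37. PERP, at 0.09, was -0.13 with offsets, with or without the block, and -0.21 without siNC replicate 4 as well. The cause was not tested. Of 210 values of the 10 genes under alternatives, 186 kept sign and side of the threshold. For the ratios the smallest exact permutation p, 0.0286, becomes 0.114 for a single ratio after adjustment over 4, so that none passed says nothing on stability. DSG3, DSC2, DSC3, DSP and DSG2 had the widest intervals of the 10 genes and a within-group SD above the median of all genes. The part of depth in that width was not tested.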

Other observations

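DSG2, DSG3 and PKP2 followed one another across the 8 libraries with or without the GC content and length trends. Pearson's r of log2 CPM was 0.97 for DSG2 with PKP2 and 0.96 for DSG2 with DSG3, and with the trends removed it was 0.95 and 0.86. PERP did not keep its place among them: its r with DSG2 was 0.89 in log2 CPM and -0.69 with the trends removed. These are descriptions, chosen after the values were seen, of 8 libraries that differ in depth and in how they follow GC content.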
